A study of Drosophila melanogaster with 18 samples.

Results

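The reporters described here were 139 barcoded reporter genes integrated on the left arm of Drosophila chromosome 3 (3L), at positions below 22 Mb. They were taken from a table of 749 reporters by chromosome and position alone, and made up 18.6% of it. A further 11 reporters on 3L lay beyond the limit, next to the centromere, the first of them at 22637050, whereas the last member lay at 21644076. The pool was made in Kc167 cells, an embryonic Drosophila line, by Sleeping Beauty transposition of a GFP gene with the copper-inducible metallothionein promoter and 5 GAL4 binding sites. Cells of the pool were induced with 0.5 mM CuSO4 and transiently transfected with 1 of 4 plasmids. GAL4-ACF1 was ACF1 fused to the GAL4 DNA-binding domain, ACF1 the same protein without that domain, GAL4-HP1 the domain fused to HP1a, and GAL4 the domain alone. Each plasmid also encoded mCherry, by which transfected cells were sorted at day 2, and each condition had 2 replicates. Each replicate gave a library of barcodes from reporter mRNA (cDNA) and another from genomic DNA (gDNA). Expression, as deposited, is the number of cDNA reads per gDNA read within a replicate, times a constant of that library. Replicates are technical according to the series text and biological according to the study, so p-values may measure technical spread only.

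ACF1 is a regulatory subunit of the ACF and CHRAC nucleosome remodelers, in which it works with the ATPase ISWI to slide and space nucleosomes. HP1a is a heterochromatin protein that binds methylated histone tails and is known as a repressor when tethered. The GAL4 domain binds the sites upstream of the reporter promoter and has no activation domain of its own, so GAL4 was the control for occupancy of these sites. Because the reporter itself is the same at each site, reporters on 3L differ in their barcode, their position and their orientation.

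Each reporter carries a barcode of 21 nt in its transcript, which identifies the integration in both kinds of library. Barcodes are shown for the reporters on which the results turn, named by chromosome, position (dm3, as deposited) and orientation, in lower case as no part of a barcode has a role of its own. The first 6 had the largest changes called between GAL4-ACF1 and GAL4, followed by the reporter called between GAL4-ACF1 and GAL4-HP1, then by 4 that gave no cDNA count with GAL4-ACF1 although GAL4 cells expressed them, and last by 2 that stayed high or were higher with GAL4-ACF1.
3L 2687539 minus: tagcaacctcacactgggcgt
3L 7731919 plus: cagggtcctctggctcggagg
3L 15724894 minus: tcgtttcgaactgtaattacg
3L 2685262 minus: aatgatcgggcgtctgactct
3L 3430681 minus: gatacttagtagcttagcgcc
3L 20846184 minus: ggtcagggatttataagatta
3L 4414745 plus: ggacgttcagaagaatagcca
3L 4659151 plus: agttctagtatttgagtcagc
3L 19275659 plus: attcaagaatcgtaggtaact
3L 4658316 plus: atatgtggagggcggaccact
3L 16291979 minus: ccgataggacgtgatctgaag
3L 16904041 minus: actgggctcgtgcgagaatgg
3L 13371977 plus: ccattgagttgcgtgatcttt

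The 139 barcodes were distinct, and each differed from every other barcode of the table at 6 or more positions. They held between 6 and 17 G or C bases, with a median of 10. Across the 103 members above 0 in every cDNA library, the number of G or C bases had a Spearman rho of −0.078 with expression in GAL4 and of 0.092 with the log2 change in GAL4-ACF1. These are correlations across reporters that share libraries, given as a description. None of the 232 barcodes of the spike-in pool was among the members.

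Depth ranged from 2616438 to 4181903 cDNA counts and from 1535023 to 2845445 gDNA counts per library. Median cDNA counts on 3L were 200 and 401 in the GAL4-ACF1 libraries, 498 and 460 in the GAL4-HP1 libraries, 545 and 540 in the ACF1 libraries, and 1084 and 786 in the GAL4 libraries. Median gDNA counts were between 1080 and 1963. Every member had gDNA counts in every library, with a minimum of 93. Between replicates, log2 expression of the 103 members correlated with Pearson's r of 0.80 in GAL4-ACF1, 0.85 in GAL4-HP1, 0.83 in ACF1 and 0.86 in GAL4. Replicates of a reporter differed in log2 expression with an SD of 1.75 for GAL4-ACF1, 1.27 for GAL4-HP1, 1.46 for ACF1 and 1.03 for GAL4, so single reporters were measured least closely with GAL4-ACF1.

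In GAL4 cells the 3L reporters were expressed over a wide range. Mean expression ran from 0 to 7209 with a median of 38.6, and the 90th percentile was 87.2 times the 10th. Expression exceeded 1000 at 2 of the 139 reporters, exceeded 100 at 28 and was below 1 at 3. The reporter at 3430681 was the strongest on the arm and also the strongest of all 749 in GAL4, with 7300 and 7118. It took 15.8% and 18.8% of the 3L cDNA counts in the GAL4 libraries, although it held 0.039% and 0.048% of all gDNA counts. The next was the reporter at 3387336, its neighbour on the arm, with 2764 and 1549. Then came the reporters at 16904041, with 806 and 1032, and at 15569924, with 705 and 867. At the low end, among members counted in every cDNA library, the reporter at 14862023 had 1.57 and 6.80, the one at 1679759 had 3.90 and 5.96, and the one at 15427766 had 5.50 and 8.70. The 3 lowest overlapped one another over their replicates.

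The members covered the arm unevenly. The first was at 280264, neighbours lay a median of 93.8 kb apart, and the largest gap, 1153 kb, ran from 5940551 to 7093642. In windows of 2 Mb the number of reporters ranged from 4 (6 to 8 Mb) to 24 (4 to 6 Mb). Median expression in GAL4 was highest in the first window (89.3, 6 reporters) and lowest between 4 and 6 Mb (14.0, 24 reporters). The replicate medians were 90.5 and 88.1 in the first window and 13.6 and 5.77 between 4 and 6 Mb. No trend along the whole arm was seen. Over the 121 members above 0 in every condition on average, position had a Pearson's r of −0.12 with log2 expression in GAL4, and of 0.042, 0.028 and 0.051 with the log2 changes in GAL4-ACF1, ACF1 and GAL4-HP1 over GAL4.

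Tethering of ACF1 was then compared with the GAL4 control. The 3L reporters were lower with GAL4-ACF1. Median expression over the 139 reporters was 11.2 and 10.1 in the GAL4-ACF1 libraries, against 35.7 and 32.0 in the GAL4 libraries. The lower quartile was 1.10 and 1.46 with GAL4-ACF1, against 14.39 and 11.02 with GAL4, and the upper quartile was 51.3 and 51.1, against 86.2 and 84.0. The median log2 fold change of mean expression was −1.34 over 121 members (quartiles −2.12 and −0.37), which is 2.54-fold lower. Replicate 1 alone gave −1.20 over 110 members and replicate 2 alone −1.28 over 117, with a mean of −1.24 ± 0.051 (SD, n = 2). Expression was lower for 102 members (84.3%) and higher for 19, and 38 were at least 4-fold lower whereas 6 were at least 2-fold higher. Over all 642 reporters the median was −1.44 and 84.9% were lower. These fold changes follow the deposited scaling. That scaling shifted the log2 ratio of GAL4-ACF1 over GAL4 by −0.20 in replicate 1 and −0.18 in replicate 2 relative to library totals, under which the 3L median was −1.15.

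Among all 139 members, both GAL4-ACF1 values lay below both GAL4 values for 85 (61.2%), against 60.3% of all 749 reporters. Both lay above for 7 members, against 3.74% of all reporters. No filter on low values enters here. Members at 0 in both GAL4-ACF1 libraries count as lower if both GAL4 values were above 0.

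Weakly expressed members had the lowest ratios. To keep the same library out of both measures, members were ordered by 1 GAL4 replicate and the change was taken over the other. Ordered by replicate 1, the 30 members with the lowest expression had a median log2 change in GAL4-ACF1 of −2.23, the following sets of 30 had −1.35 and −1.09, and the 30 with the highest expression −0.39. Ordered by replicate 2, the medians were −2.17, −1.72, −0.57 and −0.45. Spearman's rho was 0.37 and 0.38 over 120 members, against 0.34 and 0.48 over 449 reporters of the other large arms. With ACF1 the lowest 30 had −0.82 and −1.16 and the highest 30 had 0.43 and 0.16, with rho of 0.39 and 0.42. With GAL4-HP1 the lowest had −1.63 and −1.81 and the highest −0.83 and −1.11, with rho of 0.17 and 0.18. The filter acts on the low end of this order, so the lowest 30 are members that were counted with GAL4-ACF1 at least once.

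Each reporter was then tested on its counts by the quasi-likelihood method of edgeR, adjusted over 642 reporters. The quantity tested was the change of cDNA over gDNA relative to library totals. The fit treated the cDNA and gDNA libraries of a replicate as independent, so SEs and p-values leave out their pairing. With GAL4-ACF1 over GAL4, 9 of the 121 members tested were called at an adjusted p below 0.05, or 7.44%, against 6.54% of all 642 reporters. All 9 were lower, against 6.39% of all reporters called lower. At an unadjusted p below 0.05 there were 33 members (27.3%), each of them lower, against 26.3% of all reporters, so both shares on 3L were close to those of the whole table. Without the filter, 16 of 139 members were called, against 12.4% of all 749 reporters, and these were the 9, another member tested before and 6 that the filter had left out. Without GAL4 replicate 1 and without GAL4 replicate 2, 0 members were called, against 0.156% and 0.312% of all reporters, and 19 and 14 had an unadjusted p below 0.05. Without GAL4-ACF1 replicate 2, 14 were called, against 15.6% of all. With TMM normalization factors, under which the median fitted change of all reporters was −0.29 in place of −1.23, 4 members were called, 2 lower and 2 higher, against 3.89% of all reporters. DESeq2 on library totals called 19 members, all lower, against 17.6% of the reporters with an adjusted p. With its own size factors it called 10, of which 3 were lower and 7 higher, against 10.6%. The lower and the higher calls are therefore relative to the scaling chosen.

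Among the 9 called members, the largest fitted change belonged to the reporter at 2687539. It had 0.819 and 2.39 with GAL4-ACF1, 2.93 and 2.54 with GAL4-HP1, 6.93 and 4.15 with ACF1, and 22.3 and 26.5 with GAL4. The GAL4-ACF1 values were the lowest of the 8 and the GAL4 values the highest, without overlap. The fitted log2 fold change of GAL4-ACF1 over GAL4 was −3.85 ± 0.55 (SE, edgeR adjusted p = 0.00315), on 72 and 210 cDNA counts with GAL4-ACF1 against 2442 and 2593 with GAL4. The reporter at 2685262, 2277 bp away and in the same orientation, was called too. It had 1.48 and 0.546 with GAL4-ACF1, against 10.9 and 5.41 with GAL4, and a fitted change of −2.95 ± 0.80 (SE, edgeR adjusted p = 0.0488). Both members of this pair were low with ACF1 and GAL4-HP1 as well, where neither passed the test.

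The reporter at 7731919 had 2.01 and 2.64 with GAL4-ACF1, 6.55 and 3.38 with GAL4-HP1, 13.9 and 9.90 with ACF1, and 23.6 and 32.6 with GAL4. Its fitted change was −3.41 ± 0.53 (SE, edgeR adjusted p = 0.00373), and the 4 conditions did not overlap. It and the reporter at 2687539 were called in 10 of 12 alternative settings each, the exceptions being those with a GAL4 replicate left out. The other called members depended more on the setting, with 8 of 12 for the reporter at 14467592, 7 for the one at 15724894, 6 for the one at 3430681 and 5 for those at 2685262, 9338537, 13388327 and 20846184. The reporter at 15724894 had 1.503 and 0.933 with GAL4-ACF1, against 19.8 and 7.36 with GAL4 (fitted change −3.23 ± 0.83 SE, edgeR adjusted p = 0.0379). GAL4-HP1 left it at 10.7 and 13.2, within the range of the GAL4 replicates.

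The strongest reporter of the arm, at 3430681, was called as well. It had 2670 and 912 with GAL4-ACF1, 2264 and 834 with GAL4-HP1, 4374 and 7055 with ACF1, and 7300 and 7118 with GAL4. The GAL4-ACF1 replicates differed from each other, yet both lay far below GAL4, and the fitted change was −2.01 ± 0.52 (SE, edgeR adjusted p = 0.0400). The reporter at 20846184 had 17.8 and 28.9 with GAL4-ACF1, against 109 and 84.0 with GAL4 (fitted change −1.89 ± 0.50 SE, edgeR adjusted p = 0.0439). The other 3 called members lay at 9338537, 13388327 and 14467592, with fitted changes of −1.61, −1.77 and −1.88 and edgeR adjusted p-values of 0.0439, 0.0496 and 0.00878. The 9 called members were spread from 2685262 to 20846184, with 6 in minus and 3 in plus orientation, of 67 and 54 tested. None lay between 4 and 6 Mb, where only 13 of 24 members passed the filter and could be called.

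Strong members differed in their change. Of the 28 members above 100 in GAL4, 14 were lower with GAL4-ACF1 without overlap, against 60.3% of all 749 reporters. A further 4 were higher without overlap, against 3.74% of all reporters, and 10 overlapped. The median log2 ratio of the 28 was −0.54, with a range from −3.16 to 1.05. These members were picked by the same GAL4 values that the ratio is taken over. The 3 strongest after the one at 3430681, at 3387336, 16904041 and 15569924, had log2 ratios of −0.53, −0.27 and 0.077. The reporter at 16904041 had 787 and 740 with GAL4-ACF1, 257 and 181 with GAL4-HP1, 864 and 1083 with ACF1, and 806 and 1032 with GAL4. Both GAL4-ACF1 values lay just below the GAL4 values. Its GAL4-HP1 values stood apart below the other 6, with a fitted change over GAL4 of −1.25 ± 0.35 that did not pass (SE, edgeR adjusted p = 0.218). The reporter at 15569924 had 502 and 1156 with GAL4-ACF1, against 705 and 867 with GAL4. The reporter at 3387336, the neighbour of the strongest, had 1400 and 1582 with GAL4-ACF1, against 2764 and 1549 with GAL4, and a fitted change of −0.20 ± 0.45 (SE).

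Members with higher expression in GAL4-ACF1 were few and none was called in the main test. Among 107 members with at least 50 counts in the GAL4, ACF1 and gDNA libraries, the highest ratio was at 21644076, the last member before the limit. It had 173 and 10.7 with GAL4-ACF1, against 28.4 and 30.2 with GAL4, so its mean of 91.9 rests on replicate 1. The reporter at 16662306 had 404 and 43.5, against 125 and 43.0 with GAL4, and the first value was divided by the smallest gDNA count on the arm in that library, 143. The reporter at 13371977 was higher in both replicates, with 94.4 and 77.3 in GAL4-ACF1, 78.5 and 78.9 in GAL4-HP1, 50.3 and 30.6 in ACF1, and 33.8 and 38.1 in GAL4. Its fitted change was 1.48 ± 0.80 with GAL4-ACF1 (SE, edgeR adjusted p = 0.271) and 2.05 ± 0.80 with GAL4-HP1 (SE, edgeR adjusted p = 0.364).

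The most lowered of these 107 members by mean expression had few cDNA counts with GAL4-ACF1 and did not pass the test. The reporter at 15946542 had 1 and 0 cDNA counts with GAL4-ACF1, against 151 and 70 with GAL4, the one at 5940551 had 12 and 0, against 350 and 245, and the one at 18283950 had 0 and 30, against 722 and 130. Their edgeR adjusted p-values were 0.0547, 0.170 and 0.182.

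Zeros are free of the scaling factors but vary with depth. The number of members without a cDNA count was 29 and 20 of 139 in the GAL4-ACF1 libraries, or 20.9% (95% Wilson interval 14.9 to 28.4) and 14.4% (9.51 to 21.2). It was 16 and 7 with GAL4-HP1, 11 and 11 with ACF1, and 2 and 5 with GAL4, or 1.44% (0.395 to 5.09) and 3.60% (1.55 to 8.14). On the other large arms 22.6% and 15.4% were at 0 in the GAL4-ACF1 libraries, which lay inside the intervals for 3L. The intervals treat reporters that share a library as independent, so they do not measure the spread between replicates. In both replicates 17 members (12.2%) were at 0 with GAL4-ACF1, against 11.2% of all 749 reporters. The share was 8.97% on the other large arms together and 12.4% on 2L alone. With GAL4-HP1 there was 1, with ACF1 there were 5 and with GAL4 1, against 3.07%, 4.27% and 1.07% of all reporters. On 3L, 12 members were at 0 in both replicates of GAL4-ACF1 but of no other condition. In GAL4 cells the 17 were weak, at a median of 3.49, and the other members were at 42.9. They also had lower gDNA counts, with a median in GAL4-ACF1 of 645, against 1910 for the other members. The part of gDNA representation in the zeros was not tested.

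Of the 17 members at 0, 10 lay between 4 and 6 Mb. That window held 24 reporters, so 41.7% of them were at 0 in both GAL4-ACF1 libraries, against 7 of 115 (6.09%) on the rest of the arm. Among 40 windows of 2 Mb with at least 10 reporters on the large arms, this share was the highest, and the next was 23.1% (3 of 13). The window edges were chosen with the data in view. With edges moved by 1 Mb, the windows from 5 to 7 Mb (5 of 14) and from 3 to 5 Mb (6 of 21) on 3L had the highest shares of 37 windows. Their shares were 35.7% and 28.6%, and the next was 25.0% (4 of 16) on 2L. The moved windows overlap the first one and share its members at 0, so they are no separate support for it. The 10 members ran from 4491594 to 5695215, with 11 other members among them. In single libraries, the number of the 24 at 0 was 11 and 11 with GAL4-ACF1, 10 and 1 with GAL4-HP1, 8 and 6 with ACF1, and 2 and 3 with GAL4. GAL4-HP1 replicate 1 was thus close to GAL4-ACF1 here and replicate 2 was not, so that no reporter of the window was at 0 in both, whereas 4 were with ACF1 and 1 with GAL4. Median expression in the window was 1.09 and 0.339 with GAL4-ACF1, against 13.6 and 5.77 with GAL4, while on the rest of the arm it was 15.97 and 16.01 with GAL4-ACF1, against 43.0 and 41.2 with GAL4. The median gDNA count with GAL4-ACF1 was 1625 and 1254 in the window and 1812 and 1812 on the rest of the arm. In GAL4, 6 of the 40 windows had a lower median. The 13 members of the window that passed the filter were all lower with GAL4-ACF1, with a median log2 fold change of −1.70, against −1.28 for the 108 on the rest of the arm. For these 13 members the replicates differed, with a median of −2.28 in replicate 1 and −0.79 in replicate 2, so their larger change rests on replicate 1. The 13 leave out the 10 members at 0. Over all 24 members, the medians given above were far below GAL4 in both GAL4-ACF1 replicates.

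The 4 members at 0 in both GAL4-ACF1 libraries with the highest GAL4 expression were those whose barcodes are shown. The reporter at 4659151 had 0 and 0 cDNA counts on 770 and 250 gDNA counts with GAL4-ACF1, against 1046 and 37 cDNA counts with GAL4. It lay 835 bp from the reporter at 4658316 and in the same orientation, which had 0 and 0 cDNA counts on 2379 and 2267 gDNA counts, against 885 and 251 cDNA counts with GAL4. With a floor of 3 counts per library, expression at 4658316 was at least 209-fold lower with GAL4-ACF1 than with GAL4, and at 4659151 at least 96.8-fold lower. The GAL4 replicates of both differed widely, with 37.0 and 4.90 at 4658316 and 98.1 and 2.61 at 4659151. Set against GAL4 replicate 2 alone, the bounds dropped to at least 49.0-fold and at least 5.01-fold. With GAL4-HP1 the reporter at 4658316 gave 8 and 2 cDNA counts and with ACF1 125 and 18, and the reporter at 4659151 gave 0 and 28 with GAL4-HP1 and 2 and 0 with ACF1, so the pair was low in these conditions too. The reporter at 19275659 had 0 and 0 cDNA counts on 440 and 692 gDNA counts, against 165 and 235 with GAL4 (at least 45.3-fold lower), while GAL4-HP1 gave 66 and 90. The reporter at 16291979 had 0 and 0 on 1751 and 650 gDNA counts, against 190 and 78 with GAL4 (at least 59.2-fold lower), and 1 and 1 with ACF1. Floors cover counting error only, since barcode reads carry no molecular identifiers, and neither floors nor intervals cover the spread between replicates.

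With ACF1 without the DNA-binding domain, the 3L reporters lay closer to the GAL4 control. Median expression was 27.8 and 16.8 with ACF1, against 35.7 and 32.0 with GAL4. The median log2 fold change was −0.21 (quartiles −1.04 and 0.22), with −0.25 and −0.50 in the replicates, and 77 of 121 members (63.6%) were lower. Scaled to library totals the median was −0.55. Both ACF1 values lay below both GAL4 values for 50 of 139 members, against 33.9% of all reporters, and above for 13, against 9.48%. No member was called by edgeR, against 0.467% of all reporters, while 12 (9.92%) had an unadjusted p below 0.05, 11 of them lower, against 9.97% of all reporters. The DESeq2 fit on library totals called 1, against 2.02% of all. The lowest p-values belonged to the pair at 2687539 and 2685262, with fitted changes of −2.45 ± 0.54 and −2.42 ± 0.79 (SE, edgeR adjusted p = 0.0711 and 0.302).

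Taken directly, GAL4-ACF1 was lower than ACF1 on 3L. The median log2 ratio was −0.96 (quartiles −1.71 and −0.25), with −1.05 and −0.55 in the replicates, and 97 of 121 members (80.2%) were lower. Scaled to library totals the median was −0.45. Without overlap, 68 of 139 members were lower with GAL4-ACF1, against 43.1% of all reporters, and 3 were higher, against 3.87%. No member was called by edgeR, against 0.156% of all reporters, and 11 (9.09%) had an unadjusted p below 0.05, against 10.7% of all. DESeq2 on library totals called 4, against 4.22% of the reporters with an adjusted p, and edgeR called 9 with GAL4-ACF1 replicate 2 left out, against 6.85% of all. The lowest p-values were at 13388327, with 11.1 and 9.78 in GAL4-ACF1 against 59.5 and 49.1 in ACF1, and at 7731919, with edgeR adjusted p-values of 0.159 and 0.204.

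The 3L reporters were also lower with GAL4-HP1 in the deposited expression. Median expression was 15.2 and 8.80 with GAL4-HP1, against 35.7 and 32.0 with GAL4. The median log2 fold change was −1.38 (quartiles −2.17 and −0.71), where replicate 1 gave −1.04 and replicate 2 gave −1.81 (mean −1.42 ± 0.54, SD, n = 2). Of 121 members, 112 (92.6%) were lower. The deposited scaling shifted this ratio by −0.47 and −1.21 in the replicates, and scaled to library totals the median was −0.63. Without overlap, 88 of 139 members were lower with GAL4-HP1, against 61.9% of all reporters, and 3 were higher, against 1.20%. No member was called by edgeR, against 0.312% of all reporters, while 14 (11.6%) had an unadjusted p below 0.05, 12 lower and 2 higher, against 9.5% of all. DESeq2 on library totals called 3 lower and 1 higher, against 3.24% of the reporters with an adjusted p. With its own size factors it called 0 lower and 3 higher, against 2.07%, and edgeR with TMM called 0 lower and 1 higher, against 0.312%, so the direction of these calls followed the scaling. The 107 members with at least 50 counts in the GAL4, ACF1 and gDNA libraries had no minimum of cDNA counts with GAL4-HP1. Among them, the most lowered by mean expression were at 3835148 and 15946542. The reporter at 3835148 had 1.71 and 1.94 under GAL4-HP1 and 24.2 and 61.5 under GAL4. The one at 15946542 had 0 and 0.417 against 5.07 and 2.10.

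The reporter at 4414745 went the other way with GAL4-HP1. It had 130 and 179 with GAL4-ACF1, 1260 and 851 with GAL4-HP1, 1364 and 471 with ACF1, and 184 and 232 with GAL4. The ACF1 and GAL4-HP1 values lay above all GAL4-ACF1 and GAL4 values. Its cDNA counts were close to each other in the 8 libraries, between 2662 and 5865, whereas its gDNA counts were 2095 and 1140 with GAL4-ACF1, 230 and 208 with GAL4-HP1, 262 and 409 with ACF1, and 1379 and 770 with GAL4. The higher expression with ACF1 and GAL4-HP1 therefore lay in the gDNA counts. It was the 1 member called between GAL4-ACF1 and GAL4-HP1, where 0.623% of all reporters were called, with a fitted change of −3.43 ± 0.65 (SE, edgeR adjusted p = 0.0335). On the cDNA libraries alone, an alternative chosen after seeing the data, it was not among the 3 members called, against 1.09% of all reporters. Its fitted change of GAL4-HP1 over GAL4 was 3.17 ± 0.65 and did not pass (SE, edgeR adjusted p = 0.0839).

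Between the 2 tethered proteins the arm as a whole did not differ beyond the replicate spread. The median log2 ratio of GAL4-ACF1 over GAL4-HP1 was 0.11 (quartiles −0.85 and 0.85), with −0.36 in replicate 1 and 0.57 in replicate 2, so its direction was not settled. Without overlap, 21 of 139 members were lower with GAL4-ACF1, against 18.2% of all reporters, and 26 were higher, against 19.8%. At an unadjusted p below 0.05 there were 25 members (20.7%), 19 lower and 6 higher, against 16.4% of all reporters. The count of called members was 0 without GAL4-ACF1 replicate 1 (0.935% of all reporters), without GAL4-HP1 replicate 1 (0.623%) and without GAL4-HP1 replicate 2 (0.156%), whereas it was 10 without GAL4-ACF1 replicate 2 (9.03%).

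Neighbouring members were compared for how alike they were. The closest pair lay 171 bp apart at 3951388 and 3951559, both in minus orientation. Their expression was 50.7 and 18.4, and 3.01 and 14.5, with GAL4-ACF1, against 73.5 and 151, and 48.2 and 31.1, with GAL4, so that their log2 ratios of −1.70 and −2.18 were close. With GAL4-HP1 the 2 ratios were −1.77 and −2.25. The pair at 2089820 and 2090177, 357 bp apart and in opposite orientation, had log2 ratios of −2.22 and −0.22 with GAL4-ACF1 and of −1.36 and −1.59 with GAL4-HP1. Of the pair 2165 bp apart at 17159527 and 17161692, the first gave no cDNA count with GAL4-ACF1 and the other had 36.8 and 1.35 against 6.10 and 4.21 with GAL4. Over the 14 gaps below 10 kb, 10 pairs passed the filter, and their log2 changes in GAL4-ACF1 differed by a median of 1.35. The median difference was 1.48 in 42 pairs 10 to 100 kb apart and 1.46 in 54 pairs farther apart. In the same order of gaps, the median differences were 0.77, 0.69 and 0.90 for the change with GAL4-HP1, 0.55, 0.91 and 0.94 for the change with ACF1, and 1.30, 1.68 and 1.93 for log2 expression in GAL4. By these medians, the closest neighbours differed least in GAL4 expression and in the change with ACF1, and by about as much as other pairs in the change with GAL4-ACF1. Only 10 close pairs enter. Replicates of a reporter differed in log2 expression with an SD of 1.75 for GAL4-ACF1 and 1.46 for ACF1. Whether the pattern exceeds this spread was not tested.

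The 2 orientations gave similar values. The 63 members in plus orientation had a median GAL4 expression of 38.0 and the 76 in minus orientation 39.2. Their median log2 changes in GAL4-ACF1 were −1.45 and −1.28, with replicate values of −1.58 and −1.28 for plus and of −1.02 and −1.27 for minus.

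Arm 3L was set against the other large arms within each library, where the scaling between libraries cancels. The comparison used 513 reporters on X, 2L, 2R and 3R, without 2.5 Mb next to each centromere. Median expression on 3L was higher than on the other arms in each of the 8 libraries, by a log2 ratio of 0.45 and 0.28 with GAL4-ACF1, 0.19 and 0.29 with GAL4-HP1, 0.38 and 0.15 with ACF1, and 0.30 and 0.34 with GAL4. Arm by arm, the GAL4 median of 38.6 on 3L was close to 39.8 on 2R and 35.4 on 3R, and above 26.6 on X and 21.0 on 2L. This log2 ratio minus that of GAL4 was 0.047 for GAL4-ACF1, −0.080 for GAL4-HP1 and −0.055 for ACF1. The exact permutation test over libraries, two-sided, gave p = 1.00 for GAL4-ACF1 and ACF1 and 0.33 for GAL4-HP1, each 1.00 after adjustment over the 3 comparisons. With 2 libraries against 2 the smallest p possible is 0.33, so no difference could have passed, and the differences were of the size of the replicate spread (SD 0.12 for GAL4-ACF1, 0.074 for GAL4-HP1, 0.17 for ACF1 and 0.034 for GAL4). By arm, the median log2 change with GAL4-ACF1 over GAL4 was −1.34 on 3L, −1.78 on X, −1.66 on 2L, −1.03 on 2R and −1.24 on 3R. The share of tested reporters called in that comparison was 7.44% on 3L and ran from 5.38% on 2R to 7.50% on X.

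As a share of all cDNA counts of a library, 3L reporters took 13.6% and 12.8% with GAL4-ACF1, 12.9% and 11.7% with GAL4-HP1, 14.8% and 13.6% with ACF1, and 16.5% and 16.7% with GAL4. Their share of gDNA counts lay between 17.9% and 18.7% throughout. The cDNA share was thus lower in all 6 libraries of the other conditions than in both GAL4 libraries. The top 10 members held 57.3% to 70.0% of the 3L cDNA counts of a library, so the cDNA share mostly follows a few strong reporters. Without the strongest reporter, at 3430681, it was 12.1% and 11.9% with GAL4-ACF1, 11.7% and 10.5% with GAL4-HP1, 13.3% and 12.0% with ACF1, and 14.3% and 14.0% with GAL4.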

How the data were processed

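Barcode reads were counted by the authors per reporter in 8 cDNA and 8 gDNA libraries, and the deposited counts are raw, without molecular identifiers. Expression was deposited as the ratio of cDNA to gDNA reads within a replicate, times a factor that was checked to be constant over the reporters of a library. Spike-in cells (2.5% by number) had been added for scaling, but how the factor was made is not given in the sources used here. Integration sites were mapped to dm3 per the submitters' processing notes. Of 18 samples, the mapping and the spike-in library were not analysed here, and no gene annotation of dm3 was used.

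Members and lists were chosen with earlier results of these data known. Reporters with a mean expression above 0 in every condition were kept (642 of 749). This is looser than discarding a reporter at 0 in any cDNA library, an alternative that leaves 497. Fold changes are ratios of mean expression without a pseudocount. Counts were tested with edgeR 4.0.16 (quasi-likelihood, 16 libraries in 8 groups, library sizes as column totals, contrast of cDNA minus gDNA, two-sided, Benjamini-Hochberg over 642, threshold 0.05), in R 4.3.3. The pairing of cDNA with gDNA within a replicate was not modelled, also not by the replicate block. SEs were derived from the fitted change and its F statistic. The fit was tested on simulated data. DESeq2 1.42.0, TMM, other filters, scalings, the replicate block and leaving out single replicates were alternatives. Arms were compared by exact permutation over libraries (scipy 1.17.1). Reporters were named by rule. In each comparison these were up to 6 called members by size of change, or else the 2 of lowest p. The 4 highest and 3 lowest in GAL4 and the 4 highest in GAL4 without GAL4-ACF1 counts were added. The most raised and lowered were taken among members with at least 50 counts in the GAL4, ACF1 and gDNA libraries. The 4 closest pairs and the first and last member were named too. The other 3 called members, the neighbours called together and the 4 to 6 Mb window were singled out after their values were seen.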

Additional observations from a re-analysis of the deposited data

How the results depend on the processing

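Scaled to library totals, medians of the log2 fold change on 3L were −1.15 for GAL4-ACF1, −0.63 for GAL4-HP1 and −0.55 for ACF1 over GAL4, −0.45 for GAL4-ACF1 over ACF1, and −0.44 for GAL4-ACF1 over GAL4-HP1, where the direction turned. For GAL4-ACF1 over GAL4 the median was −1.13 with members at 0 in any cDNA library left out and −1.24 with the replicate block. With a pseudocount of 1, GAL4-ACF1 over GAL4-HP1 gave −0.023. Single replicates gave −1.28 to −1.20 for GAL4-ACF1 and −0.50 to −0.25 for ACF1 over GAL4, −1.05 to −0.55 for GAL4-ACF1 over ACF1 and −0.36 to 0.57 for GAL4-ACF1 over GAL4-HP1. Called members for GAL4-ACF1 over GAL4 numbered 4 with TMM, 5 with library sizes following the deposited scaling, 19 with DESeq2 on library totals, 16 without the filter, 8 with the replicate block and 0 to 14 with a replicate left out. For GAL4-ACF1 over GAL4, 3.89% of all reporters were called with TMM, 3.74% following the deposited scaling and 7.32% with the replicate block. Without the filter the share was 12.4%, and with DESeq2 on library totals 17.6% of the reporters with an adjusted p. With at least 10 counts in every library 11 members were called (12.2%). On cDNA libraries alone there were 10 (6.23%), a setting chosen after seeing the data. For ACF1 over GAL4, DESeq2 called 1 on library totals (2.02%) and 4 with its own size factors (4.58%). There was 1 without the filter (1.34%) and 1 with at least 10 counts in every library (1.05%). For GAL4-HP1 over GAL4 the numbers were 1 with TMM (0.312%), and 4 (3.24%) and 3 (2.07%) with the DESeq2 settings in that order. With at least 10 counts there was 1 (0.629%), and on cDNA libraries alone 1 (0.779%), the last chosen after seeing the data. For GAL4-ACF1 over ACF1, DESeq2 on library totals called 4 (4.22%). For GAL4-ACF1 over GAL4-HP1 there were 3 with TMM (1.4%), 0 following the deposited scaling (0%), and 8 (6.85%) and 7 (6.07%) with DESeq2. Without the filter there were 4 (4.14%), with at least 10 counts 2 (1.89%) and on cDNA alone 3 (1.09%). The difference between 3L and the other arms ranged over single replicates from −0.063 to 0.16 for GAL4-ACF1 and from −0.20 to 0.086 for ACF1. As a mean of log2 expression plus 1 it was 0.10 for ACF1 and 0.021 for GAL4-HP1, and over reporters above 0 in every cDNA library 0.073 for GAL4-HP1, so its direction was not settled. The cause of these shifts was not tested. Labels number the replicates without naming a shared batch, and deviations of same-numbered libraries correlated with r from −0.0087 to 0.15 between conditions, so the replicate block pairs by number alone. It moved no call count by over 1.5 times, but 6 of the 9 members called for GAL4-ACF1 over GAL4 were shared. Calls were lost at 3430681, 9338537 and 20846184 (edgeR adjusted p = 0.0559, 0.0559 and 0.0542) and, for GAL4-ACF1 over GAL4-HP1, at 4414745 (edgeR adjusted p = 0.0523), where another member was called instead. Low cDNA counts with GAL4-ACF1 limit the weakest members.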
